A study of Rattus norvegicus with 17 samples.

Results

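Phenylephrine, an alpha-adrenergic agonist used in culture to make heart muscle cells grow, was compared with plasma drawn from people with kidney failure before nocturnal hemodialysis (NHD), which is dialysis given overnight at home or in a centre. The comparison took every sample titled as treated with PE and every sample titled as given plasma from before NHD, which made 2 and 6 arrays, or 8 of the 17 in the series. All cultures were ventricular myocytes from neonatal Sprague-Dawley rat hearts, given as 5 days old, with no allele or transgene named, and 1 Affymetrix array was run on the RNA of each. The before NHD cultures received 10% uremic plasma, while the dose, the time and the medium of the phenylephrine cultures are not stated in the labels. The agonist and the absence or presence of plasma in those cultures therefore cannot be told apart here. The other 9 arrays, 3 from cultures with control plasma (its share not stated) and 6 from cultures with 10% plasma drawn after NHD, entered the same fit and are given beside the results.

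As background, phenylephrine binds alpha-1 adrenergic receptors, which couple through Gq to phospholipase C, inositol trisphosphate, calcium release and protein kinase C. Downstream MAP kinases and calcineurin switch on immediate early genes, and over hours to days neonatal myocytes enlarge, add sarcomeres and express fetal genes such as the natriuretic peptides. Uremic plasma carries retained solutes, hormones and cytokines, and any plasma added to a culture also brings serum steroids, lipids and growth factors.

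Values are log2 RMA expression values, so that a difference of 1 is a doubling, and the levels of different genes are not compared because each probe set binds differently. A gene is called higher or lower when limma's moderated test, fitted over all 17 arrays, gave a Benjamini-Hochberg adjusted p under 0.05 over 29214 probe sets. The labels call the samples biological replicates without naming separate cultures or donors, so p-values measure the spread between these samples, and that spread may be partly technical. The precision is set by the number of arrays, 2 of them with phenylephrine. The cultures carried the markers of the labelled cell type. The mean level of 10 cardiomyocyte markers lay at 12.59 and 12.61 with phenylephrine and between 12.34 and 12.79 before NHD. In bulk RNA, fewer cells of a type and less RNA per cell cannot be told apart.

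Before NHD replicate 4 was very like after NHD replicate 4. Over all probe sets the SD of their difference was 0.205, against 0.241 to 0.722 for every other pair of arrays within a group or between the before and after NHD groups. The labels give them as separate samples of opposite groups. Results that turn on before NHD replicate 4 are therefore given with and without it. The titles of before NHD replicates 2 and 3 also name the first biological replicate, so that replicates 1 to 3 may not be independent, and the SDs of the differences among these 3 arrays were 0.349, 0.462 and 0.484. With the 3 averaged as 1 sample, 1022 probe sets passed and 20 named genes lost their call.

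With phenylephrine, members of the cell division, interferon and lipid synthesis lists were higher than with before NHD plasma. Members of the glucocorticoid and clock list and of the list of p53 targets and apoptosis genes were lower. Of 29214 probe sets, 1268 (4.34%) passed, 579 higher (1.98%) and 689 lower (2.36%), with a median absolute log2 difference of 0.80. At the gene level, with 1 probe set per gene, 837 of 14506 genes passed (5.77%), 381 higher (2.63%) and 456 lower (3.14%). Counts within the gene lists are to be read beside these shares. The median difference over all genes was -0.01. Both phenylephrine arrays lay above all 6 before NHD arrays in 566 of the 579 probe sets called higher and below all of them in 679 of the 689 called lower. Over all 29214 probe sets these shares were 7.05% and 9.44%, and over all genes 8.11% and 11.6%. Values against the other groups are given beside some genes and share arrays with this comparison. Of all genes, 23.6% were called between phenylephrine and control plasma, 5.84% between before NHD and control plasma and 1.35% between phenylephrine and after NHD plasma.

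The count of 1268 depends much on the phenylephrine arrays, and on having the 9 arrays outside the comparison in the fit. Without phenylephrine replicate 1, 71 probe sets passed, and without replicate 2, 129. Leaving out before NHD replicate 4 or 6 raised the count to 1934 or 2377, and leaving out any other single array gave 895 to 1543. Leaving out a phenylephrine array leaves that group with 1 array, which is then assumed to vary like the other groups. Of 101 genes that were named by rule and passed, 9 passed with either phenylephrine array left out and with every other array left out in turn. These were Zbtb16, Per1, Fads2, Scd, Cxcl10, Oasl, Egr2, Mmp13 and Pde2a. In a fit of the 8 compared arrays alone, where 34 probe sets passed, Pde2a did not (adjusted p = 0.0822) and the other 8 did. That fit called no member of the mitosis, DNA replication or p53 and apoptosis lists. It called 1 interferon gene and 3 lipid synthesis genes, all higher, and 2 glucocorticoid and clock genes, both lower.

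**Figure D1:**
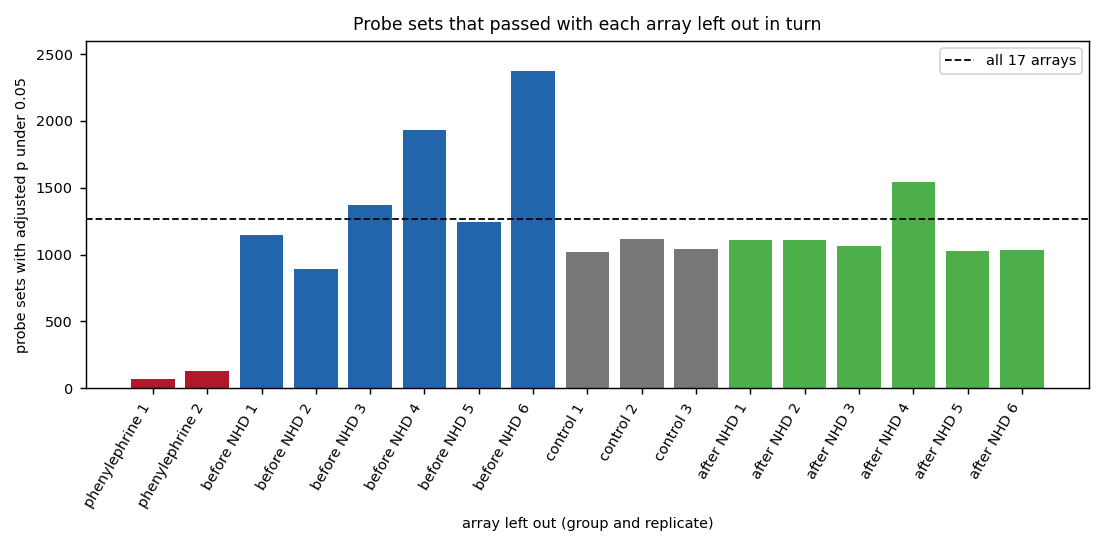
Number of probe sets with an adjusted p under 0.05 (y axis) when the array named on the x axis is left out of the fit, coloured by group, with the dashed line at the 1268 probe sets of all 17 arrays. The bars fall to 71 and 129 without a phenylephrine array and rise to 1934 and 2377 without before NHD replicate 4 or 6.

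The before NHD arrays were unlike each other. Their SD for the median probe set was 0.249, and that of the phenylephrine arrays was 0.0941. Measured as the SD over probe sets of the difference from the phenylephrine mean, before NHD replicate 6 lay nearest at 0.403 and replicate 5 farthest at 0.674, while control arrays lay at 0.604 to 0.684 and after NHD arrays at 0.318 to 0.521. Fibroblast markers split the group. The mean of 21 such markers was 9.53 in before NHD replicates 3 and 6 and 7.32 to 7.82 in the other 4, against 9.51 and 9.76 with phenylephrine. In a fit with this mean as a term, chosen after the data were seen, 519 probe sets passed. The 9 genes listed above were among them.

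The largest increases among named genes that passed were those of Mx2, Top2a, Kif20a, Ccnb2, Pbk, Ccna2, Cxcl10, Rrm2, Ect2 and Fads1. They ran from 3.33 down to 2.68 on the log2 scale. Of these 10 genes, 7 act in cell division or DNA synthesis, Mx2 and Cxcl10 are interferon-induced, and Fads1 is a fatty acid desaturase. The largest decreases among named genes that passed were those of Zbtb16, Per1, Prrg2, Tlcd3b, Cnksr2, RT1-CE5, Fitm2, Eqtn, Neto2 and Cdkn1c. They ran from -2.39 to -1.79.

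**Figure D2:**
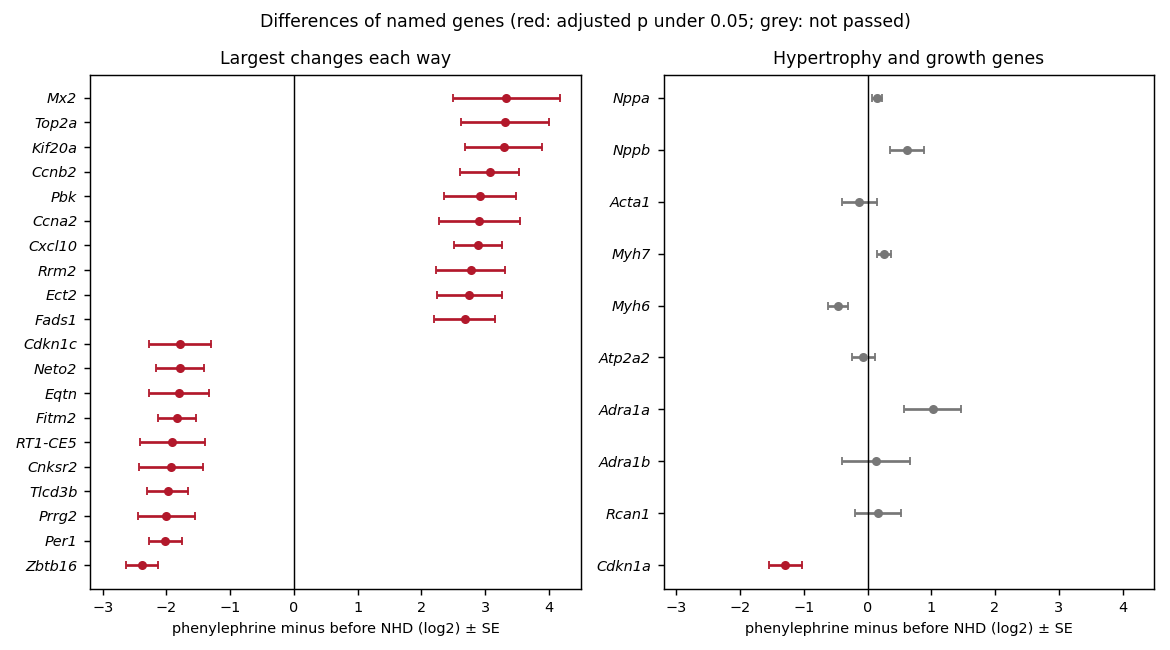
Log2 difference between the phenylephrine and before NHD means (x axis) with its standard error from the limma fit. The left panel holds the 10 largest increases and decreases among named genes that passed. The right panel holds 10 genes of hypertrophy, adrenergic signalling and growth, and genes that passed are in red. Nppa, Nppb, Myh7 and the adrenergic receptors are grey, and Cdkn1a is the red point of the right panel, at -1.29.

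The receptors that phenylephrine binds were not called different. Adra1a, which encodes the alpha-1A receptor, read 10.14 and 10.18 with phenylephrine and 7.79, 9.69 and 9.91 (lowest, median and highest) before NHD, a difference of 1.02 ± 0.45 (SE, adjusted p = 0.229). Both phenylephrine arrays were above all 6, and replicates 3 and 5 were the low ones, at 7.79 and 8.07. Against control plasma Adra1a was higher both with phenylephrine (2.58, adjusted p = 0.00287) and with before NHD plasma (1.56, adjusted p = 0.0358). For Adra1b, the alpha-1B receptor, the groups overlapped, with 8.15 and 7.92 against 6.63 to 9.01 (0.13 ± 0.53, adjusted p = 0.935).

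Of 38 measured genes of adrenergic and Gq signalling, 4 were higher and 1 lower, with a median of 0.15. Rgs5 and Rgs3, which shorten G protein signals, rose by 1.84 ± 0.31 (adjusted p = 0.0039) and 0.59 ± 0.12 (adjusted p = 0.00867). Rgs5 read 8.59 and 8.81 against 6.43, 6.69 and 7.77. Its groups did not overlap, and replicate 3 was the highest before NHD array. Itpr3, an inositol trisphosphate receptor that releases stored calcium, rose by 0.60 ± 0.11 (adjusted p = 0.00684), and Prkcb, a protein kinase C, by 0.59 ± 0.15 (adjusted p = 0.0287). Rock1, a kinase downstream of RhoA, was the member that fell, from 10.74 to 10.99 before NHD to 10.12 and 10.26 (-0.67 ± 0.10, adjusted p = 0.00211). Rgs2, another brake on Gq, differed by 0.31 ± 0.24 (adjusted p = 0.532). No member passed without phenylephrine replicate 1, and Rock1 alone did without replicate 2. Rgs5 is also a pericyte marker, and that list is given with the other cell types.

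Among 38 immediate early genes and feedback regulators of MAP kinases, 6 were higher and none lower (median 0.26). Egr2, a zinc finger factor induced within an hour of growth signals, read 8.17 and 8.15 with phenylephrine and 6.37, 6.60 and 7.15 before NHD. The groups lay 1 log2 unit apart at their nearest arrays, and the difference of 1.51 ± 0.18 had an adjusted p of 0.00040. Control arrays, at 6.58 to 6.71, and after NHD arrays, at 6.45 to 7.09, also lay below. Egr3, its close relative, rose by 0.63 ± 0.10 (adjusted p = 0.00263) and Ier3, an early response gene linked to survival, by 1.30 ± 0.18 (adjusted p = 0.0014). Etv4 and Etv5, ETS factors that follow sustained ERK activity, rose by 1.0 ± 0.19 and 1.01 ± 0.18 (adjusted p = 0.00762 and 0.00471). Phlda1 passed narrowly (1.22 ± 0.33, adjusted p = 0.046). Egr1 read 10.90 and 10.83 against 8.38, 9.80 and 10.20, above all 6, but its difference of 1.36 ± 0.45 did not pass (adjusted p = 0.105). The values of Fos overlapped (0.15 ± 0.25, adjusted p = 0.818). The number that passed was 1 without phenylephrine replicate 1 and 2 without replicate 2, Egr2 being among them each time.

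The promoter of Egr2 is shown because a CArG box, the site named for serum response factor, lies within it. The stretch runs from 250 bases before to 50 bases after the annotated start, read 5′ to 3′ along the gene from RefSeq (GRCr8), with the match in capitals.
Egr2 promoter, chr20:21054392-21054691, minus strand: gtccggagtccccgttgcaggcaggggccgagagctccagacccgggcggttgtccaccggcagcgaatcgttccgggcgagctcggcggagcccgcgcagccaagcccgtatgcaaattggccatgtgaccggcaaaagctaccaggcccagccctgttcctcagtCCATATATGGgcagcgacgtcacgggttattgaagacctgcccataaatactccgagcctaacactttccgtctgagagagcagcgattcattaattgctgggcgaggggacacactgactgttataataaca
A CArG box on either strand is present in 1.64% of 27457 rat promoters of this length. Among 27 list members with a promoter in the table, 4 have one (Egr1, Egr2, Dusp5 and Klf6), and of the 3 that rose and have an entry, 1 does. A match describes the letters only.

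Of 29 measured members of the fetal and hypertrophy programme none was higher and 1 was lower, with a median of -0.04, and 10 had an unadjusted p under 0.05 in the limma fit. That count turned on before NHD replicate 4, without which 4 were higher and 1 lower. With array weights 6 were higher and 4 lower, and without the samples numbered 4 of both plasma groups 6 were higher and 2 lower. Nppa, which encodes atrial natriuretic peptide, read 13.92 and 13.93 with phenylephrine and 13.66, 13.78 and 13.85 before NHD. Both phenylephrine arrays were above all 15 others, yet the difference of 0.15 ± 0.08 did not pass (adjusted p = 0.306), and the values lie near the top of the scale, which ends at 14.29. Nppb, the B-type peptide, read 13.55 and 13.63 against 12.36, 12.90 and 13.66. Replicate 4 lay above both phenylephrine arrays (0.62 ± 0.27, adjusted p = 0.209). Acta1, skeletal actin re-expressed in hypertrophy, differed by -0.13 ± 0.27 (adjusted p = 0.856). Myh7 and Myh6, the slow and fast cardiac myosin heavy chains, differed by 0.25 ± 0.11 (adjusted p = 0.204) and -0.46 ± 0.16 (adjusted p = 0.129), with overlapping arrays in both. Set against control plasma, Myh7 was higher with phenylephrine by 0.53 (adjusted p = 0.00677), and before NHD plasma differed from control by 0.27 (adjusted p = 0.0873). Csrp3, a Z-disc stretch sensor, read 13.18 and 13.01 against 10.95, 11.57 and 13.44, and its difference of 1.28 ± 0.46 did not pass (adjusted p = 0.138). Replicate 4 was the array at 13.44, and without it Csrp3 was called higher (adjusted p = 0.00609). Il6st, the gp130 receptor subunit, was the member that fell (-0.87 ± 0.18, adjusted p = 0.0101), although not without either phenylephrine array.

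Calcineurin signalling gave no call among 22 genes in the limma fit, with 5 at an unadjusted p under 0.05 and a median of 0.05, and with array weights 3 were higher and 2 lower. Without before NHD replicate 4, 2 were higher and 1 lower. Rcan1, a feedback inhibitor and usual readout of calcineurin, read 11.52 and 11.80 against 11.03, 11.30 and 12.74, the last being replicate 4 (0.17 ± 0.36, adjusted p = 0.87). Of 25 sarcomere and Z-disc genes, 1 rose and 1 fell. Nrap, which anchors growing myofibrils, rose by 0.72 ± 0.17 (adjusted p = 0.0231), and Ttn, the giant spring protein titin, fell by 0.50 ± 0.13 (adjusted p = 0.0369). Neither passed without phenylephrine replicate 1 or 2, and Ttn was also lost without any of 6 other arrays.

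In calcium handling, 2 of 24 genes were higher and 1 lower. Atp2b4, a plasma membrane calcium pump, read 8.91 and 9.04 against 6.10, 7.12 and 8.12 (1.86 ± 0.41, adjusted p = 0.0162). S100a1, a calcium sensor of the sarcoplasmic reticulum, rose by 1.51 ± 0.40 (adjusted p = 0.0393), with replicate 6 at 11.11 close to the phenylephrine values of 11.32 and 11.37. Jph1, a junctophilin that couples membrane and store, fell from 9.13 to 10.25 before NHD to 8.45 and 8.69 (-1.18 ± 0.22, adjusted p = 0.00753). Atp2a2, the SERCA2 pump, differed by -0.07 ± 0.18 (adjusted p = 0.89). Among 24 channel and gap junction genes only Kcne1, a potassium channel subunit, was called, lower by 0.77 (SE 0.19, adjusted p = 0.0323). None of these 4 calls held without phenylephrine replicate 1 or 2, and S100a1 passed in 5 of the 17 fits that left out an array.

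Of 10 genes for natriuretic peptide processing and reception, Pde2a was called. It encodes a phosphodiesterase that cyclic GMP stimulates to break down cyclic AMP. Its values were 9.77 and 9.80 with phenylephrine and 6.96, 7.68 and 8.57 before NHD, so the groups were more than 1 log2 unit apart, with replicate 4 the highest of the 6. The difference was 2.03 ± 0.28 (adjusted p = 0.00145), and against control plasma Pde2a was higher with phenylephrine by 2.72 (adjusted p = 0.00020) and with before NHD plasma by 0.69, which did not pass (adjusted p = 0.101). Npr3, the clearance receptor, read 7.80 in both phenylephrine arrays and 7.48, 9.41 and 9.82 before NHD. Its difference of -1.36 ± 0.45 did not pass (adjusted p = 0.102). Replicate 4 was the array at 7.48, and without it Npr3 was called lower (adjusted p = 0.00167). Of 34 endocrine and growth factor ligands only Fgf23, the phosphate hormone whose plasma level is high in kidney failure, was called. It read 7.12 and 7.50 against 5.68, 5.82 and 6.46 (1.36 ± 0.30, adjusted p = 0.0165), and it was not called without phenylephrine replicate 1 or 2. Of these ligands 3 were higher without before NHD replicate 6, and with the fibroblast marker mean as a term none was higher and 4 were lower.

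**Figure D3:**
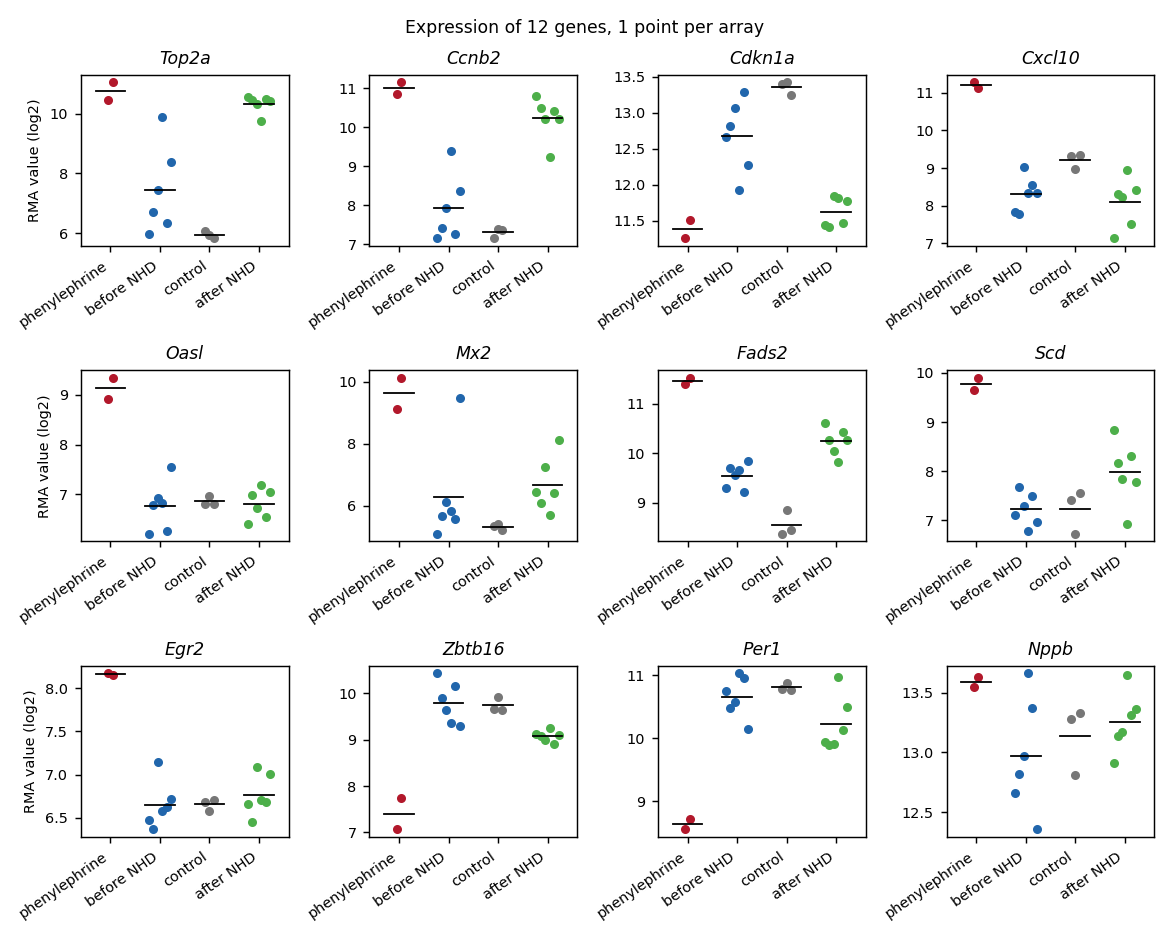
RMA value on the log2 scale (y axis) of 12 genes in each of the 17 arrays, by group, with the group mean as a line. Egr2, Oasl, Cxcl10, Scd, Fads2, Zbtb16 and Per1 separate both phenylephrine arrays from all others, while for Mx2 and Nppb at least 1 before NHD array reaches the phenylephrine range.

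Mitosis was the list with the highest share of calls. Of 38 measured genes of mitosis and cytokinesis, 22 rose and none fell, or 57.9% against 5.77% of all genes, with a median of 1.35 against -0.01. Of the 38, 26 had both phenylephrine arrays above all 6 before NHD arrays, where 8.11% of all genes did. Top2a, which untangles replicated DNA, read 10.47 and 11.06 with phenylephrine and 5.98, 7.07 and 9.88 before NHD. Replicates 4 and 6 were the high ones, at 9.88 and 8.40, and the difference was 3.31 ± 0.69 (adjusted p = 0.0116). Ccnb2, a B-type cyclin, read 10.84 and 11.15 against 7.16, 7.68 and 9.39 (3.07 ± 0.46, adjusted p = 0.0021), and its other probe set gave the same 3.07. Kif20a, a kinesin of cytokinesis, rose by 3.29 ± 0.60 (adjusted p = 0.00603), and Ect2, the exchange factor that places the cleavage furrow, by 2.75 ± 0.51 (adjusted p = 0.0064). Pbk, a mitotic kinase, and Ccna2, cyclin A2, rose by 2.92 ± 0.56 and 2.91 ± 0.63 (adjusted p = 0.00743 and 0.0151). Kif2c, Aurkb and Foxm1, a kinesin, a kinase and the transcription factor of the G2 programme, rose by 2.32, 1.79 and 1.66 (adjusted p = 0.00175, 0.00323 and 0.00385).

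The mean level of the mitosis list was 9.19 and 9.72 with phenylephrine and 7.12 to 8.61 before NHD. It was 7.99 to 8.02 with control plasma and 8.55 to 9.27 after NHD. In this list mean, before NHD arrays thus ran from below to above control. For Top2a, Kif20a, Pbk, Ccna2 and Ect2 the after NHD arrays reached into the phenylephrine range. All control arrays lay below the before NHD median of these genes, for Top2a at 5.83 to 6.08 against 7.07. Top2a differed between phenylephrine and after NHD plasma by 0.42 (adjusted p = 0.877). None of the 38 mitosis genes passed in the fit of the 8 compared arrays. Of the 38, 3 passed without phenylephrine replicate 1, none without replicate 2, and with the fibroblast marker mean as a term 9 did.

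**Figure D4:**
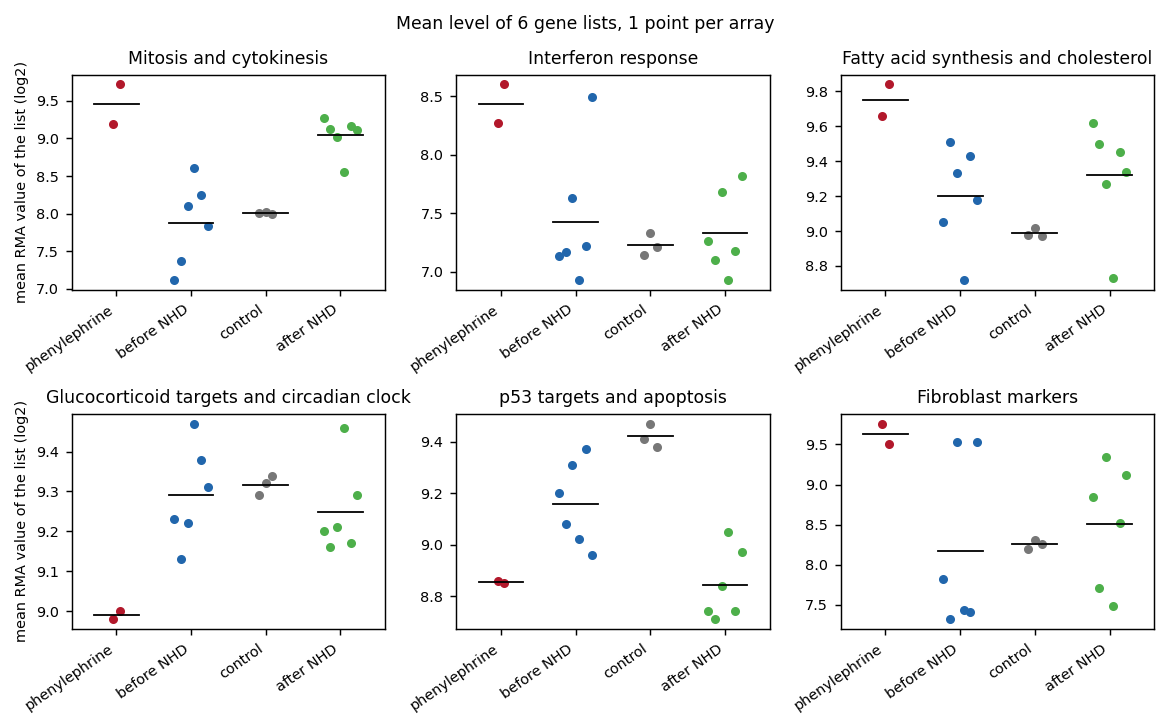
Mean RMA value on the log2 scale (y axis) over the measured members of 6 gene lists, 1 point per array by group, with the group mean as a line. Both phenylephrine arrays lie above all before NHD arrays for mitosis and lipid synthesis, below them for glucocorticoid and clock genes, and between or beside replicates 3 and 6 for fibroblast markers and replicate 6 for interferon genes.

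The promoters of Top2a and Ect2 are printed because both hold CCAAT boxes together with the TTTGAA core of the cell cycle homology region, found in many G2 genes. Capitals mark CCAAT and either TTTGAA or TTTAAA, on both strands, in the stretch from 250 bases before to 50 after the start (RefSeq, GRCr8).
Top2a promoter, chr10:84473044-84473343, minus strand: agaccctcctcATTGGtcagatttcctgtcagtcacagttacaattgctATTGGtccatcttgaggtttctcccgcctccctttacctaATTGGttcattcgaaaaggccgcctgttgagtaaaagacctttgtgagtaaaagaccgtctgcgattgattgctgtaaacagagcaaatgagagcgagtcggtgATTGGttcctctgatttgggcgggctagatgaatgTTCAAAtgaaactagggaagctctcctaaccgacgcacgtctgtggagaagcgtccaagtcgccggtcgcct
Ect2 promoter, chr2:111966577-111966876, minus strand: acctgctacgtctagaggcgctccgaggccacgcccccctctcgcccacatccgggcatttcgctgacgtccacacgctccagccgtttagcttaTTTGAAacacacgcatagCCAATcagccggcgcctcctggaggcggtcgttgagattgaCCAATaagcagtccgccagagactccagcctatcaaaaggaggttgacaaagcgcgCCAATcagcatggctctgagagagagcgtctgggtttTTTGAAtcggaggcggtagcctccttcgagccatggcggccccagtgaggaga
Top2a has 4 CCAAT boxes and 1 core, and Ect2 has 3 and 2. Of all 27457 promoters, 37.7% hold a CCAAT and 27.9% a TTTGAA or TTTAAA. Of the 30 mitosis genes with an entry, 22 hold the first and 27 the second, and of the 16 that rose and have an entry, 12 and 15 do. These shares describe the genes of the list, whether or not they rose.

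In the list of DNA replication 9 of 35 genes were higher and none lower (median 0.40). Rrm2, the small subunit of ribonucleotide reductase, read 11.47 and 11.91 against 7.64, 9.14 and 9.89 (2.77 ± 0.54, adjusted p = 0.0082). Tk1, thymidine kinase, rose by 0.96 ± 0.16 (adjusted p = 0.00413), Uhrf1, which maintains DNA methylation, by 1.11 ± 0.21 (adjusted p = 0.00739), and E2f8, a repressor of E2F targets, by 1.0 ± 0.20 (adjusted p = 0.0101). After NHD arrays reached into the phenylephrine range for Rrm2, at 9.81 to 11.60, and for E2f8, at 7.27 to 7.64, but not for Tk1 or Uhrf1. Between phenylephrine and after NHD plasma, Rrm2, Tk1, Uhrf1 and E2f8 did not pass (adjusted p = 0.741, 0.298, 0.481 and 0.636). The DNA replication list gave no call without phenylephrine replicate 1 or 2, and without before NHD replicate 4 or 6 it gave 13 increases. Of 19 CDK inhibitors, D cyclins and pocket proteins, 4 rose and 3 fell. Ccnd1 and Ccnd2, the D cyclins that start the cycle, rose by 1.33 ± 0.26 (adjusted p = 0.00885) and 0.82 ± 0.15 (adjusted p = 0.00551). Cdkn3 and Cdkn2c rose by 2.17 ± 0.32 and 1.92 ± 0.33 (adjusted p = 0.00175 and 0.00417). Cdkn3 is a phosphatase whose message peaks in mitosis, and Cdkn2c is the inhibitor p18.

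Cdkn1a, which encodes the p21 inhibitor and is a p53 target, fell. It read 11.26 and 11.51 with phenylephrine, 11.93, 12.74 and 13.29 before NHD and 13.25 to 13.42 with control plasma. The groups did not overlap, replicate 4 was the lowest before NHD array, and the difference was -1.29 ± 0.26 (adjusted p = 0.0101). After NHD arrays, at 11.42 to 11.84, overlapped with phenylephrine. Against control, phenylephrine gave -1.97 (adjusted p = 0.00064) and before NHD plasma -0.68, which did not pass (adjusted p = 0.082). Cdkn1c, the p57 inhibitor, read 7.95 and 7.98 against 8.07, 10.21 and 10.75 (-1.79 ± 0.49, adjusted p = 0.0484), with replicate 4 at 8.07 and a call that was lost in 14 of the 17 fits that left out an array. Ccng1, another p53 target, fell by 0.82 ± 0.15 (adjusted p = 0.00547). Without phenylephrine replicate 1, Cdkn3 and Cdkn2c were the members of the list that passed, and without replicate 2 none was.

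Of 34 p53 targets and apoptosis genes, 6 fell and none rose (median -0.26), or 17.6% called against 5.77% of all genes. With the fibroblast marker mean as a term, 1 was higher and 2 were lower. Birc2, an inhibitor of apoptosis, read 6.77 and 7.03 against 7.95, 8.48 and 8.96 and 9.14 to 9.39 with control plasma (-1.57 ± 0.23, adjusted p = 0.00175). Bcl2l1, which encodes the survival protein Bcl-xL, fell by 0.77 ± 0.12 (adjusted p = 0.00301). Aen, a p53-induced nuclease, and Phlda3, a p53-induced inhibitor of Akt, fell by 1.28 ± 0.29 and 0.92 ± 0.22 (adjusted p = 0.0173 and 0.0247). Bcl2l11 and Fas made up the rest, and Fas, a death receptor, passed at an adjusted p of 0.0474 although replicate 4 (7.65) reached the phenylephrine values of 7.59 and 7.65. The list held no call without phenylephrine replicate 1 and that of Birc2 alone without replicate 2, and without before NHD replicate 6, 11 members were lower.

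**Figure D5:**
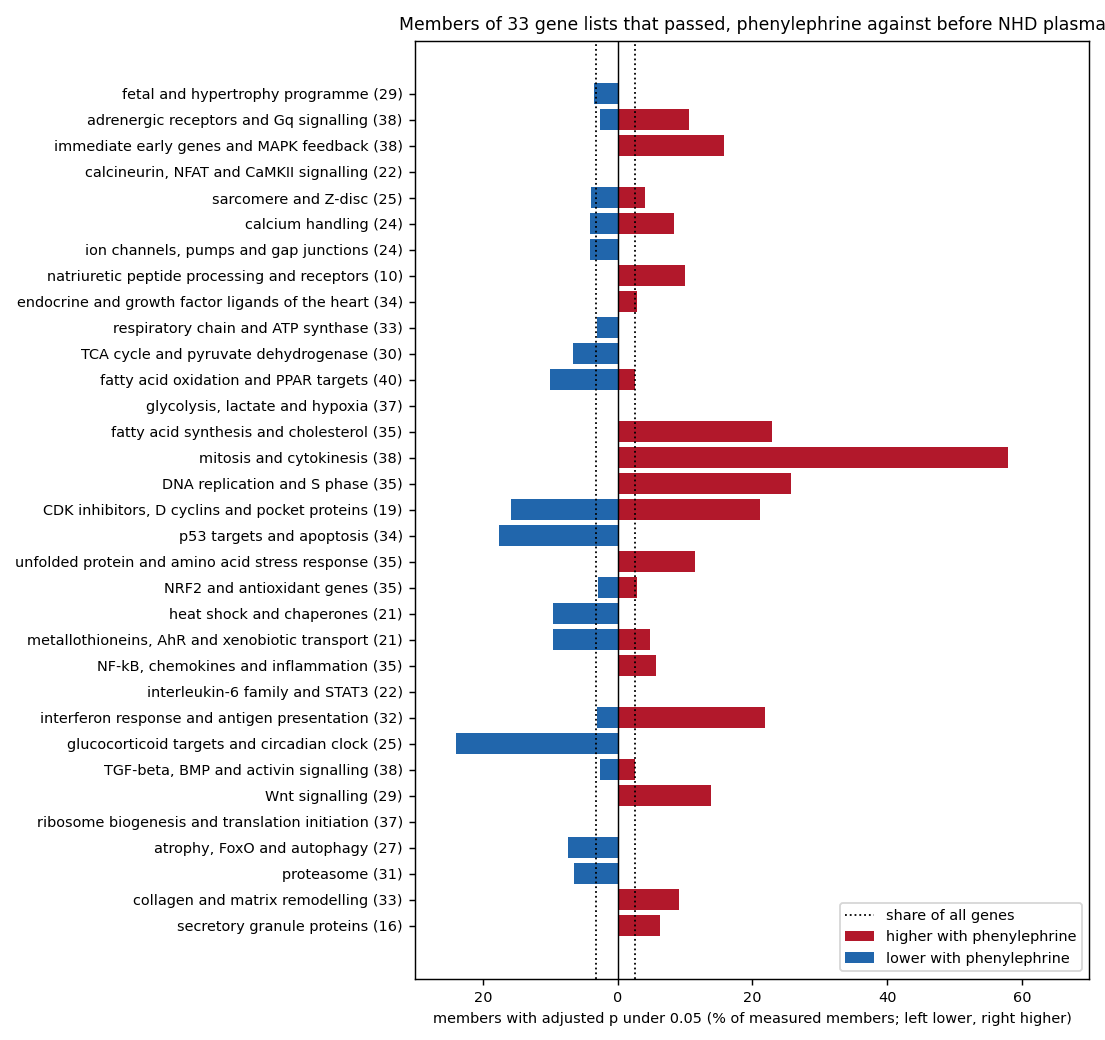
Share of the measured members (number in brackets) of 33 gene lists that were called higher (right, red) or lower (left, blue) with phenylephrine than before NHD, in percent, with dotted lines at the shares of all genes, 2.63% higher and 3.14% lower. Mitosis and cytokinesis reaches 57.9% on the right, and glucocorticoid targets with clock genes 24.0% on the left.

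Genes that make and desaturate fatty acids were higher. In the list of fatty acid synthesis and cholesterol, 8 of 35 rose and none fell (median 0.49). Fads2, the delta-6 desaturase, read 11.40 and 11.53 with phenylephrine and 9.21, 9.61 and 9.84 before NHD. Every phenylephrine value was above every other of the 15, and the difference was 1.92 ± 0.20 (adjusted p = 9.7e-05). Against control, where the arrays read 8.37 to 8.84, phenylephrine gave 2.91 (adjusted p = 3.6e-06) and before NHD plasma 0.99 (adjusted p = 0.0164). Scd, stearoyl-CoA desaturase, read 9.66 and 9.90 against 6.79, 7.21 and 7.67 (2.55 ± 0.36, adjusted p = 0.00146), and before NHD plasma differed from control by -0.01 (adjusted p = 0.992). Fads1, the delta-5 desaturase, read 11.30 and 11.35 against 8.09, 8.59 and 9.25 (2.68 ± 0.48, adjusted p = 0.00517). Fasn and Acaca, the synthase and the carboxylase that supplies it, rose by 0.80 ± 0.16 and 0.62 ± 0.12 (adjusted p = 0.0103 and 0.00868). Abcg1, a cholesterol exporter, rose by 1.88 ± 0.37 (adjusted p = 0.00911). Fads2 and Scd were the 2 members that passed without phenylephrine replicate 1 and again without replicate 2.

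Of 40 fatty acid oxidation genes, 4 were lower and 1 higher (median -0.27), or 12.5% called against 5.77% of all genes. None was called in the fit of the 8 compared arrays. Acaa2, the last enzyme of the mitochondrial spiral, read 11.54 and 11.73 against 12.07, 12.61 and 13.15 (-1.01 ± 0.21, adjusted p = 0.0113). Ppargc1a and Esrra, the coactivator and receptor that drive oxidative genes, fell by 0.97 ± 0.25 and 0.40 ± 0.10 (adjusted p = 0.036 and 0.0365), and Slc25a20, the carnitine carrier, by 1.12 ± 0.30 (adjusted p = 0.0411). Acsl3, which activates fatty acids on lipid droplets, rose by 0.99 ± 0.17 (adjusted p = 0.00417). Fitm2, which packages triglyceride into droplets, was among the largest decreases (-1.83 ± 0.30, adjusted p = 0.00358). Pdk4, the kinase that shuts off pyruvate oxidation, read 10.26 and 10.94 against 11.92, 12.20 and 13.22 (-1.73 ± 0.35, adjusted p = 0.00997). It was 1 of 2 TCA and pyruvate dehydrogenase genes of 30 that fell, the other being Idh3a (-0.42 ± 0.11, adjusted p = 0.0378). Of 33 respiratory chain genes 1 fell, Ndufs3 of complex I (-0.65 ± 0.11, adjusted p = 0.00414). None of the 37 glycolysis and hypoxia genes passed in the limma fit, with 5 at an unadjusted p under 0.05, and with array weights 1 was higher. No call of this paragraph held without phenylephrine replicate 1 or 2, and without before NHD replicate 2 or 3 the oxidation list had 1 or 2 decreases, as it did without after NHD replicate 3, 5 or 6 or control replicate 3. The TCA list had 3 increases and 3 decreases without before NHD replicate 6, 2 and 3 without after NHD replicate 4, and 1 and 3 without before NHD replicate 3 or 4.

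Interferon-induced genes were higher, and 1 before NHD array shared the pattern. Of 32 genes of the interferon response and antigen presentation, 7 rose and 1 fell, with a median of 1.03. Oasl, an oligoadenylate synthetase-like sensor, read 8.92 and 9.34 with phenylephrine and 6.21, 6.81 and 7.54 before NHD (2.37 ± 0.28, adjusted p = 0.00037). Replicate 6 was the highest of the 6, and control and after NHD arrays lay at 6.80 to 6.96 and 6.40 to 7.18. Ifit3, which binds viral RNA complexes, rose by 1.92 ± 0.29 (adjusted p = 0.00189), and Mx1, an antiviral GTPase, by 2.04 ± 0.33 (adjusted p = 0.00337). Mx2 showed the overlap most clearly, with 9.13 and 10.12 against 5.10 to 6.12 in 5 before NHD arrays and 9.48 in replicate 6 (3.33 ± 0.84, adjusted p = 0.0325). Its call was lost without before NHD replicate 1, 2 or 5 and without either phenylephrine array. Rsad2, or viperin, and Isg15, a ubiquitin-like modifier, rose by 1.76 ± 0.41 and 1.09 ± 0.27 (adjusted p = 0.0203 and 0.027), again with replicate 6 in the phenylephrine range. The member that fell was RT1-CE5, a class I antigen-presenting gene so like its relatives that the probes may read several of them (-1.91 ± 0.51, adjusted p = 0.0427). Its groups overlapped, with 7.95 and 7.71 against 7.87 in replicate 4, and it passed in 3 of the 17 fits that left out an array. Between phenylephrine and after NHD plasma it differed by -0.05 (adjusted p = 0.989).

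The mean of the interferon list was 8.27 and 8.60 with phenylephrine, 8.49 in before NHD replicate 6, 7.63 in replicate 3 and 6.93 to 7.22 in the other 4. Without replicate 6, 18 members were higher and 1 lower, and without replicate 1, 2 or 5, the increases numbered 5, 4 or 5. With before NHD replicates 1 to 3 averaged 3 were higher, and Mx2 was not called (adjusted p = 0.0876). Among the probe sets at or above the median brightness 2 were higher. Dimmer members, Mx1, Mx2, Ifit3 and Rsad2 among them, were not tested in that fit. Without phenylephrine replicate 1, 2 were higher, without phenylephrine replicate 2, 1 was, and with the fibroblast marker mean as a term, 3 were.

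Cxcl10, a chemokine that interferon and NF-kB induce, was higher than in every other array. It read 11.28 and 11.12 with phenylephrine, 7.77, 8.33 and 9.02 before NHD, 8.98 to 9.36 with control plasma and 7.14 to 8.96 after NHD. The difference was 2.89 ± 0.38, or 7.42-fold (adjusted p = 0.00078). Here replicate 6, at 8.33, was not set apart from the other before NHD arrays. Cx3cl1, a membrane-bound chemokine, rose by 1.03 ± 0.15 (adjusted p = 0.00188), and the call was lost without phenylephrine replicate 1. They were the 2 of 35 NF-kB and inflammation genes that were called, with a list median of 0.22. Nfkbia encodes a feedback inhibitor of NF-kB, and Nfkb2 one of its subunits. Both had lower means with phenylephrine, by 1.74 (SE 0.49) and 1.78 (SE 0.51), and did not pass (adjusted p = 0.0563 and 0.0578). Both passed without before NHD replicate 6 (adjusted p = 0.00738 and 0.00334) and without replicate 4 (adjusted p = 0.0361 and 0.0285). Without either of these arrays the list had 3 increases and 3 decreases, and with the fibroblast marker mean as a term 2 and 2.

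Promoters of Ifit3, Rsad2 and Cxcl10 are given because each holds 2 copies of GAAA set 2 bases apart, the core of the interferon response element, in capitals on whichever strand they lie (RefSeq, GRCr8, 250 bases before to 50 after the start).
Ifit3 promoter, chr1:241527076-241527375, plus strand: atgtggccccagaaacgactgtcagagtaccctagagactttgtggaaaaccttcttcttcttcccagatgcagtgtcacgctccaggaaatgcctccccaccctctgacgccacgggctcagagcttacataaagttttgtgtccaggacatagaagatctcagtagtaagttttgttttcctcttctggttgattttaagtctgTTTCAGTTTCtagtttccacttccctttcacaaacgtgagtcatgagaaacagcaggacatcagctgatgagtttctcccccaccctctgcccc
Rsad2 promoter, chr6:48788071-48788370, minus strand: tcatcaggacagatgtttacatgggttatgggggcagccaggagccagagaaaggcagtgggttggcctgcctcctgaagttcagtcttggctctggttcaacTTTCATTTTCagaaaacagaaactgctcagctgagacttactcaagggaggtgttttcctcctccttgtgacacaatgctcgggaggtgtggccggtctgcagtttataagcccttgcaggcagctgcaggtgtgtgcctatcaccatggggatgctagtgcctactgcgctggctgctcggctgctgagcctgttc
Cxcl10 promoter, chr14:15988816-15989115, plus strand: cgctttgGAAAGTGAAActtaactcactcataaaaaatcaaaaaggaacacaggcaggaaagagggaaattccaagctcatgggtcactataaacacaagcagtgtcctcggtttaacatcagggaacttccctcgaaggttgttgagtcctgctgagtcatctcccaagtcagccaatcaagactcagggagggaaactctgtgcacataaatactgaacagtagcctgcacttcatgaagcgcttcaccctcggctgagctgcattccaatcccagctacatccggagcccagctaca
The match starts 44 bases before the start of Ifit3, 147 before that of Rsad2 and 243 before that of Cxcl10. It is present in 3.77% of all 27457 promoters and in 14 of the 26 interferon list members with an entry. Of the 4 members that rose and have an entry, 2 hold it.

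Glucocorticoid targets and clock genes gave 6 decreases of 25 and no increase, or 24.0% called, with a median of -0.19. Zbtb16, a zinc finger repressor strongly induced by glucocorticoids in many cells, read 7.07 and 7.74 with phenylephrine and 9.29, 9.78 and 10.43 before NHD. The groups were more than 1.5 log2 units apart at their nearest arrays, and the difference of -2.39 ± 0.25 had an adjusted p of 9.7e-05. Control arrays, at 9.63 to 9.93, overlapped with before NHD (0.06, adjusted p = 0.894), and phenylephrine was lower than control by 2.34 (adjusted p = 0.00022). Per1, a clock repressor that glucocorticoids also induce, read 8.56 and 8.72 against 10.15, 10.67 and 11.03 (-2.02 ± 0.26, adjusted p = 0.00064). Fkbp5, a chaperone that dampens the receptor, read 7.01 and 7.05 against 7.94, 8.21 and 8.65 (-1.22 ± 0.20, adjusted p = 0.00337). Klf9, another target, fell by 0.75 ± 0.16 (adjusted p = 0.0161). Cry1 and Clock, of the core clock, fell by 0.94 ± 0.15 and 0.56 ± 0.14 (adjusted p = 0.00311 and 0.0277).

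Not every glucocorticoid target was lower. Tsc22d3, which encodes GILZ, read 8.19 and 8.04 against 8.05, 8.28 and 8.70, and its difference of -0.19 ± 0.15 did not pass (adjusted p = 0.557). The mean of the list was 8.98 and 9.0 with phenylephrine and 9.13 to 9.47 before NHD, so the groups did not overlap. Zbtb16 and Per1 were the members that passed without either phenylephrine array, and 5 passed with the fibroblast marker mean as a term.

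Of 35 genes of the unfolded protein and amino acid response, 4 rose and none fell (median 0.18). Nupr1, a stress-induced chromatin protein, read 11.10 and 10.79 against 7.19, 8.12 and 9.51 (2.60 ± 0.49, adjusted p = 0.00675), with replicates 3 and 6 the highest before NHD arrays. Hyou1, a chaperone of the endoplasmic reticulum, rose by 1.01 ± 0.17 (adjusted p = 0.00369), Pdia6, a disulfide isomerase, by 1.11 ± 0.29 (adjusted p = 0.0407), and Slc7a5, which imports large amino acids, by 0.79 ± 0.19 (adjusted p = 0.0239). In the list of heat shock genes and chaperones 2 of 21 fell, Chordc1, an Hsp90 partner, by 1.03 ± 0.17 (adjusted p = 0.00337) and Hspe1, a mitochondrial co-chaperonin, by 0.51 ± 0.14 (adjusted p = 0.0442). Of 35 NRF2 and antioxidant genes 1 rose, Gstp1 (1.38 ± 0.36, adjusted p = 0.0397), and 1 fell, Gpx1 (-0.86 ± 0.16, adjusted p = 0.00614). Proteasome subunits had a median of -0.31, with 2 of 31 lower, the ATPases Psmc6 (-0.65 ± 0.14, adjusted p = 0.0143) and Psmc5 (-0.60 ± 0.14, adjusted p = 0.0256). Without before NHD replicate 4 or 6, 5 or 11 were lower. Foxo1, which drives atrophy genes, and Fbxo30, a ubiquitin ligase of atrophy, were the 2 of 27 in their list that fell (-0.79 ± 0.17 and -0.81 ± 0.22, adjusted p = 0.014 and 0.0435). None of 37 ribosome biogenesis and translation genes passed in the limma fit, although the median was -0.36 and 12 had an unadjusted p under 0.05, and with array weights 7 were lower. Without phenylephrine replicate 1 or 2, no gene of these 6 lists passed. Some calls also rested on other arrays. Of the 17 fits that left out an array, Gstp1 and Pdia6 passed in 6, Fbxo30 in 5 and Hspe1 in 4.

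Metallothioneins bind zinc and are induced by metals and glucocorticoids. Mt1 read 12.18 and 12.92 with phenylephrine and 9.21, 9.70 and 11.69 before NHD, with replicates 4 and 6 high, at 11.69 and 11.37. The difference was 2.40 ± 0.53 (adjusted p = 0.0172), and its other probe set gave 2.51. Mt2A, its neighbour in function, read 12.75 and 13.22 against 9.76, 11.12 and 12.78, with replicate 6 inside the phenylephrine range, and did not pass (1.80 ± 0.56, adjusted p = 0.0829). The zinc importer Slc39a10 fell by 1.09 ± 0.24 (adjusted p = 0.0172), and so did Arnt, the partner of the dioxin receptor, by 0.47 ± 0.12 (adjusted p = 0.0336). The 3 called genes of this list of 21 were lost without phenylephrine replicate 1 or 2. The Mt1 promoter is shown for its 3 copies of TGCGCNC, the core of the metal response element, in capitals (both strands searched; RefSeq, GRCr8).
Mt1 promoter, chr19:10832926-10833225, minus strand: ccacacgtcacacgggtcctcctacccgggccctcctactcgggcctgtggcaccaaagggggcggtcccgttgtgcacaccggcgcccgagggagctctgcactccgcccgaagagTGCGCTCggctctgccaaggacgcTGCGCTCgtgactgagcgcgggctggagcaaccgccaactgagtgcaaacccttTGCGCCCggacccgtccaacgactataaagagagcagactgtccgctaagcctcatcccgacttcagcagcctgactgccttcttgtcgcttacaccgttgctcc
Of all promoters, 15% hold at least 1 such core.

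In Wnt signalling 4 of 29 genes rose and none fell. Lef1, the nuclear partner of beta-catenin, read 7.51 and 7.41 against 6.43, 6.57 and 6.90 (0.83 ± 0.13, adjusted p = 0.00268), and Fzd2, a receptor, rose by 1.25 ± 0.22 (adjusted p = 0.00429). Wnt2 and Nkd1, a ligand and a feedback inhibitor, passed near the threshold (adjusted p = 0.0381 and 0.0483). Lef1 passed without phenylephrine replicate 2, and no member did without replicate 1. Of 38 TGF-beta, BMP and activin genes, the activin receptor Acvr1b rose (0.67 ± 0.16, adjusted p = 0.0221) and the inhibitor of differentiation Id2 fell (-1.49 ± 0.40, adjusted p = 0.0458). None of the 22 interleukin-6 and STAT3 genes passed in the limma fit, with 6 at an unadjusted p under 0.05, and with array weights 3 were higher and 2 lower. Of 16 secretory granule genes Cpe, a prohormone carboxypeptidase, rose (1.20 ± 0.26, adjusted p = 0.0161), but not without phenylephrine replicate 1 or 2. The list median was -0.02, and 7 of the 16 had a positive difference. Scg2 and Cga differed more, by -2.22 ± 0.94 and -1.93 ± 0.75, and did not pass (adjusted p = 0.207 and 0.165). Their before NHD arrays ran from 4.90 to 10.16 and from 5.54 to 9.45.

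Matrix genes were described beside the fibroblast markers of each array, since before NHD replicates 3 and 6 were high for both lists. Of 33 collagen and matrix genes 3 rose and none fell, with a median of 0.99. Mmp13, a collagenase, read 6.01 and 6.05 with phenylephrine and 4.36, 4.65 and 4.96 before NHD (1.37 ± 0.16, adjusted p = 0.00031), and replicates 3 and 6, rich in fibroblast markers, read 4.66 and 4.36. The values of all 15 other arrays, up to 5.11, lie under the first quartile of probe set means (5.63), so the size of this difference is measured against a dim signal. Fbln1, a matrix glycoprotein, read 8.53 and 8.60 against 6.83, 6.97 and 7.75 (1.39 ± 0.27, adjusted p = 0.00786). There replicates 3 and 6 were the high ones, at 7.63 and 7.75. Col4a1, a basement membrane chain, rose by 0.58 ± 0.14 (adjusted p = 0.0323). Without phenylephrine replicate 1 or 2, Mmp13 alone was called. Without before NHD replicate 3, 4 or 6, the increases numbered 9, 5 or 10.

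All 21 fibroblast markers had a positive difference (median 1.30), but 1 passed, S100a4, a calcium-binding protein that other motile cells also carry (1.52 ± 0.28, adjusted p = 0.0063). Postn, a matrix protein of activated fibroblasts, read 11.80 and 11.48 against 7.01, 7.83 and 10.96, with replicates 3 and 6 at 10.96 and 10.90 (2.99 ± 1.01, adjusted p = 0.107). Without before NHD replicate 3 or 6, 4 or 7 of the markers were higher. The part of fibroblast content in the other differences was not tested beyond the fit with the marker mean as a term. Smooth muscle and pericyte markers gave 2 increases of 13, Rgs5 and Cspg4 (0.91 ± 0.24, adjusted p = 0.0411). Endothelial markers gave 2 of 16, Cdh5 (0.41 ± 0.10, adjusted p = 0.0276) and Plvap (0.46 ± 0.12, adjusted p = 0.0382), and their mean was 6.97 and 7.10 against 6.29 to 7.04.

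Epicardial and mesothelial markers gave 3 increases of 7. These were Aldh1a2, which makes retinoic acid (1.16 ± 0.27, adjusted p = 0.0209), the uroplakin Upk1b (1.67 ± 0.41, adjusted p = 0.0276) and the keratin Krt19 (0.73 ± 0.20, adjusted p = 0.0491). None of the 24 leukocyte, 8 neural and 8 erythroid markers passed in the limma fit, with 7, 1 and 1 at an unadjusted p under 0.05. With array weights 4 leukocyte and 1 neural marker were higher and 1 erythroid marker lower. Leukocyte markers averaged 6.47 and 6.59 with phenylephrine and 5.92 to 6.66 before NHD, and 7 of the 24 lay in the dimmest 25% of probe sets. None of the marker calls held without phenylephrine replicate 1 or 2.

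Several small counts also turned on single arrays other than phenylephrine. In Wnt signalling 2 members rose without after NHD replicate 5 or 6 or control replicate 1. Without before NHD replicate 6, the NRF2 list had 3 increases and 1 decrease, the metallothionein list 3 and 2, the TGF-beta list 2 and 2 and the secretory granule list 1 and 2. Of leukocyte markers 3 were higher without before NHD replicate 3 and 2 without replicate 6. Of epicardial markers 1 and of endothelial markers none was called without before NHD replicate 2. The heat shock and atrophy lists had 1 decrease each, not 2, without before NHD replicate 2, 3 or 5, and Id2 lost its call without any of 12 arrays other than phenylephrine.

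Outside the rule for named genes, Krt18 and Mtif2 were picked after their values were seen, for their small p-values. Krt18, a keratin of simple epithelia, read 11.26 and 10.95 against 7.88, 8.37 and 9.11 (2.65 ± 0.25, adjusted p = 4.9e-05), above all 15 other arrays. Of its other probe sets, 1 gave 2.35 and the other 0.40. Mtif2, a mitochondrial translation initiation factor, read 7.99 and 8.32 against 9.47, 9.67 and 10.05 (-1.58 ± 0.15, adjusted p = 4.9e-05), below all 15. Both passed with any single array left out.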

How the data were processed

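RNA of neonatal rat ventricular myocyte cultures was read on 17 Affymetrix arrays. The authors deposited 1 log2 value per probe set and array. RMA is the method named in the submitters' processing notes, its version and probe set definition being not given in the sources used here. RMA brings the arrays' distributions close together, so a shift of most genes in one direction would be largely hidden. The deposited arrays still differed in spread, with SDs of 2.244 to 2.370. The values ran from 1.28 to 14.29, and array medians from 6.89 to 7.03. Of 29214 probe sets, 15310 had 1 gene symbol in the platform annotation, 323 several and 13581 none, and 15279 probe sets had their gene in a RefSeq table (GRCr8). Where a gene had several probe sets, the brightest by mean was taken, giving 14506 genes.

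A single model of 4 group means was fitted to all probe sets by lmFit and eBayes of limma 3.58.1 under R 4.3.3 (degrees of freedom 13 residual, 3.32 from the prior), and tests were two-sided with Benjamini-Hochberg adjustment. The standard error pools the unequal spread of the groups. Phenylephrine minus before NHD equals the difference between their effects against the shared control arrays, so it is also the test of that difference. Where a title gave 2 replicate numbers (before NHD replicates 2 and 3), the later one was taken.

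Members, comparisons and the 41 gene lists (1201 symbols, 1065 measured) were chosen with earlier results of these data known. Named genes were the 10 largest changes each way among genes that passed, up to 4 genes from every list, ranked by p, and 10 hypertrophy, receptor and growth genes. The largest changes skipped provisional symbols and any probe set naming more than 1 gene. Alternatives were other normalizations, filters, spread models and fits, a replicate block, and each array left out in turn.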

Additional observations from a re-analysis of the deposited data

Results flagged for a closer look

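In 186 named genes the 6 before NHD arrays were checked for 1 array lying far from the other 5, by Dixon's ratio of its gap to the whole range against its tabulated critical value for 6 samples. The check marked 13 genes, where chance marks about 1 in 20. Replicate 4 was the array in 6 of them, replicate 6 in 6 and replicate 5 in 1. Replicate 4 is the array that lay close to after NHD replicate 4, with an SD of their difference of 0.205.

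Replicate 6 was high for interferon-induced genes. It read 9.48 for Mx2 against 5.10 to 6.12 in the others (ratio 0.769), 6.35 for Mx1 against 4.74 to 5.27 (ratio 0.670) and 7.14 for Rsad2 against 5.19 to 5.62 (ratio 0.781). It was also the high array for Scn4b, a sodium channel subunit (8.19 against 5.56 to 6.38, ratio 0.688), for S100b, a glial calcium-binding protein (6.25 against 5.39 to 5.59, ratio 0.759), and for Krt19 (6.68 against 5.84 to 6.12, ratio 0.674).

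Replicate 4 was low for Kcnd2, a transient outward potassium channel (8.20 against 9.64 to 10.04, ratio 0.783), for Npr3 (7.48 against 9.20 to 9.82, ratio 0.734), for the glycolytic enzyme gene Aldoc (8.47 against 9.57 to 10.10, ratio 0.671) and for the adhesion gene Ncam1 (10.35 against 11.40 to 12.01, ratio 0.630). It was high for Myh7 (13.20 against 12.82 to 12.96, ratio 0.629) and Rcan1 (12.74 against 11.03 to 11.43, ratio 0.768). Replicate 5 was low for Tk1 (6.23 against 6.64 to 6.84, ratio 0.667).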

How the results depend on the processing

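Where 1268 probe sets passed with all 17 arrays, the count was 34 in a fit of the 8 compared arrays (28 higher and 6 lower, with 3532 at an unadjusted p under 0.05), 519 with the fibroblast marker mean as a term, 2022 with each array's SD as a term, 4764 with array weights and 2399 without the before and after samples numbered 4. With each array left out in turn it ran from 71 (without phenylephrine replicate 1) to 2377 (without before NHD replicate 6). Phenylephrine and before NHD share 2 replicate numbers, and the deviations of same-numbered arrays correlated at 0.084 and 0.067. Deviations of 2 arrays from their mean mirror each other, so these are not 2 independent checks of the replicate number. The labels do not say that the number marks a shared source, and a fit with that number as a replicate block called 2447 probe sets, with 14 fibroblast markers, 17 matrix genes and 18 interferon genes higher. Of 6 before NHD arrays, those numbered 2, 3 and 4 were most like the after NHD array of their own number, and the same-numbered deviations correlated at -0.025 to 0.599. Centring each array on its median gave 488 higher and 992 lower, or 33% higher against 45.7% in the fit with no centring, and the brighter probe sets alone gave 36.9% higher. The median difference over probe sets was -0.01, -0.02 after a second quantile normalization and -0.08 after centring. Counts in the other alternatives, which averaged before NHD replicates 1 to 3, took 1 probe set per gene, used a trended robust prior or asked for 1.5-fold, lay between 1001 and 1303. No named gene reversed its direction past the threshold in the alternatives run. With 2 phenylephrine arrays, a gene whose call rests on both is not shown to differ by either alone.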
